A study of Homo sapiens with 6 samples.

Results

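The 32 genes described here encode components of the nuclear pore complex, together with NUTF2, the import factor that works at the pore. They were compared by RNA-seq between K562 cells depleted of lncRNA-IUR-5 and control K562 cells. The members were fixed by gene symbol, and every row of the deposited table whose RefSeq protein accession belongs to one of them was collected, which gave 107 of 109018 rows. For each gene, the row with the most reads over the 6 libraries stands for the gene, and the other rows are given beside it. All 32 such rows passed the minimum level used for testing, a mean of 1 RPKM (reads per kilobase of row length, relative to the reads of the library) over the 6 libraries. Of the 107 rows, 105 passed it, and the 2 that did not belong to RANBP2.

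K562 is an erythroid-like human line from a chronic myeloid leukemia that carries the Bcr-Abl fusion kinase. Both groups were stable lines made with the same lentiviral vector, pSIH-H1-GFP. In 3 libraries the vector carried a hairpin against luciferase (sh-luc, the control), and in 3 it carried a hairpin against the lncRNA (called sh-IUR-5 here and sh-lncRNA-IIRX in the labels). The comparison asks which transcripts differ once lncRNA-IUR-5 is depleted. Because the rows are protein accessions, the lncRNA itself was not analysed here, so the depletion has no check in these counts, and the comparison rests on a single hairpin sequence.

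The nuclear pore is the channel through which proteins and RNA pass between the nucleus and the cytoplasm. Its scaffold is built of an outer ring (the Y complex) on each face and an inner ring in the plane of the membrane, held in the nuclear envelope by transmembrane components. Subunits with phenylalanine-glycine repeats fill the channel and bind transport receptors, filaments on the cytoplasmic side complete mRNA export, and a basket hangs into the nucleus. The small GTPase Ran gives transport its direction.

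The libraries held between 21023739 and 31481109 reads on accessions. The deepest was sh-IUR-5 library 1. All 10 K562 markers, GATA1 and the fetal globins among them, reached 1 RPKM, and their summed RPKM ran from 19980 to 22330 in sh-luc and from 16080 to 16750 in sh-IUR-5. Of 17 markers of other cell types, 4 reached that level, LYZ, EPCAM and KRT19 among them, 3 were at 0 in every library (CD3G, MS4A1 and FCGR3A), and the summed RPKM ran from 321.2 to 359.1 in sh-luc and from 321.7 to 377.4 in sh-IUR-5. The part of the K562 marker difference in the results was not tested. As RNA was pooled from many cells, a lower level cannot be told apart from fewer cells that express the gene.

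Of the 32 nuclear pore genes, 15 were higher in sh-IUR-5 cells, 2 were lower and 15 did not pass the threshold (edgeR quasi-likelihood test, adjusted p under 0.05 over 38204 accessions). The larger rises were in the central channel subunit NUP58, the basket subunits NUP50 and NUP153, the outer ring subunit NUP160 and the membrane subunits NUP210 and NDC1. POM121 and SEC13 were lower, POM121 by its row with the most reads, while its other row was higher. The median log2 fold change of the 32 genes was 0.26, beside 0.005 over all accessions tested and -0.007 over 8873 genes taken at 1 row each. In the same fit, 22.4% of those genes were higher and 23.5% were lower, and over all accessions 19.2% were higher and 18.1% were lower. The changes were modest: 2 of the 17 called genes reached 2-fold, NUP58 and NUP50, and the median absolute log2 fold change of the 17 was 0.52. The 3 sh-IUR-5 libraries all lay above the 3 sh-luc libraries for 16 members and all below for 4 (scaled values), beside 26.9% and 27.5% of the 8873 genes by the same criterion, which is no test. Scaled by total reads alone, which moves the median of all accessions to 0.21, 23 members were higher and 1 was lower with a median of 0.46, beside 39.3% and 12% of the 8873 genes. With the series in the library names (library 1, or libraries 2 and 3) as a term in the fit, 18 members were higher and 3 lower, beside 27.3% and 29.1%.

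**Figure D1:**
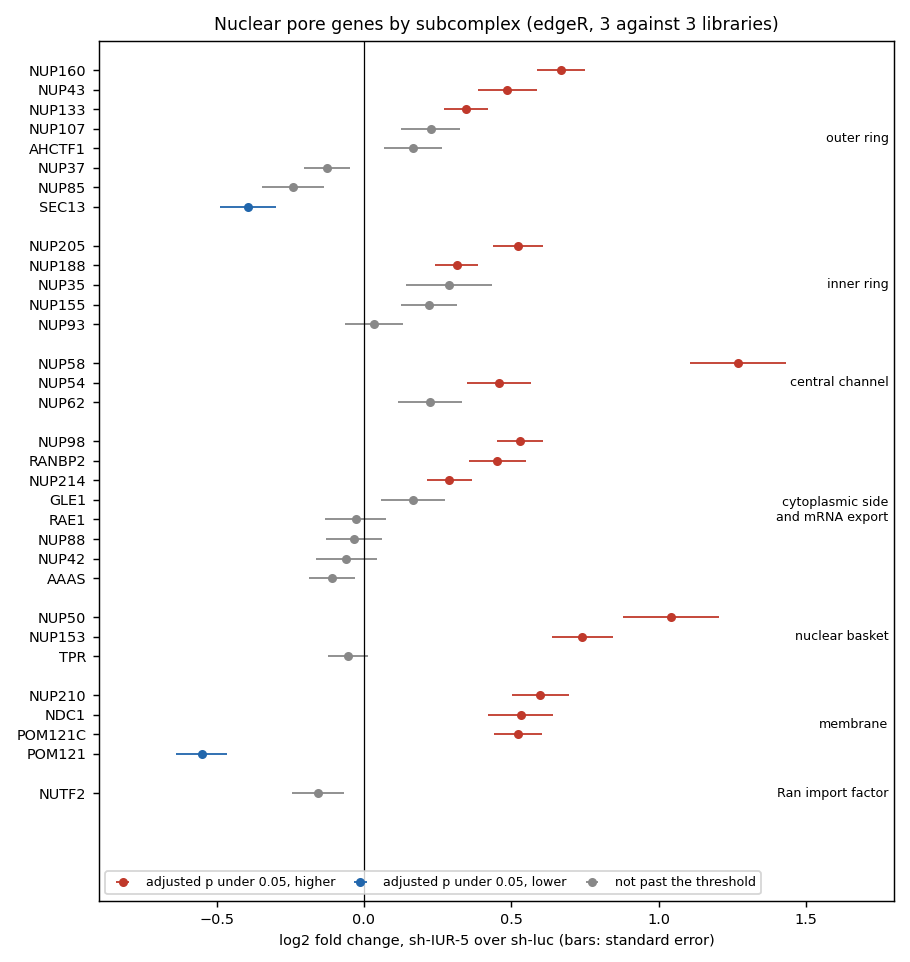
Log2 fold change of sh-IUR-5 over sh-luc for each of the 32 nuclear pore genes (horizontal axis; bars are the standard error of the edgeR fit, 3 libraries against 3), grouped by position in the pore. Red points are the 15 genes called higher, blue points the 2 called lower (SEC13 and POM121), and gray points the 15 not past the threshold. NUP58 at 1.27 and NUP50 at 1.04 lie furthest to the right.

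The central channel is formed by NUP62, NUP58 and NUP54, which assemble through coiled coils and carry phenylalanine-glycine repeats. NUP58 and NUP54 were higher, and NUP62 did not pass the threshold. The NUP58 gene lies at chr13:25301524-25365390 (plus strand, hg38). Its level, in RPKM after TMM scaling of the library totals (scaled RPKM), was 0.944, 1.54 and 1.12 in sh-luc and 2.87, 2.91 and 2.89 in sh-IUR-5. Every sh-IUR-5 library was thus above every sh-luc library. The log2 fold change was 1.27 with a standard error of 0.16 (edgeR adjusted p = 1.06e-05). The row rested on 37 to 55 reads per sh-luc library and 134 to 179 per sh-IUR-5 library, the lowest level among the 32 rows. Both other NUP58 rows were higher as well, with log2 fold changes of 1.01 and 1.06. NUP54 rose from 7.50 ± 1.00 to 10.3 ± 0.75 scaled RPKM (SD, n = 3 each), a log2 fold change of 0.46, and all 3 of its rows were called higher. NUP62 stood at 6.33 ± 0.67 and 7.41 ± 0.58 scaled RPKM (SD, n = 3 each), with a log2 fold change of 0.22 (edgeR adjusted p = 0.110, or 0.0348 with the series term), and 1 of its 5 rows of equal length passed the threshold.

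The nuclear basket was represented by NUP153, which anchors the basket to the pore, NUP50, a mobile subunit that takes part in importin recycling, and TPR, the coiled-coil protein that makes up the basket filaments. NUP50 lies at chr22:45163925-45188017 (plus strand, hg38). Its scaled RPKM was 1.47, 1.43 and 1.61 in sh-luc and 3.26, 2.59 and 3.42 in sh-IUR-5. The groups did not overlap, although sh-IUR-5 library 2 was below the other two. The log2 fold change was 1.04 with a standard error of 0.16 (edgeR adjusted p = 7.51e-05), and its 4 rows ranged from 0.78 to 1.09, all called higher. NUP153, at chr6:17615035-17706925 (minus strand), had 2.29, 2.50 and 2.89 scaled RPKM in sh-luc and 4.44, 4.05 and 4.32 in sh-IUR-5. Its groups were also apart, with a log2 fold change of 0.74 (standard error 0.10, edgeR adjusted p = 2.26e-05) and values of 1.11 and 1.02 for its 2 other rows. TPR did not follow them. It is one of the deepest covered members, with 8159 to 13275 reads per library, and it stood at 56.6 ± 2.6 scaled RPKM in sh-luc and 54.5 ± 1.2 in sh-IUR-5 (SD, n = 3 each). Its log2 fold change was -0.05 (edgeR adjusted p = 0.558), and 0.15 when the libraries were scaled by total reads alone (edgeR adjusted p = 0.0451).

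The promoters of NUP58 and NUP50, the members that passed 2-fold, are shown from 250 bases before to 50 bases after the RefSeq start (GRCh38, strand of the gene), because both genes moved the same way. Capitals mark matches, on either strand, to short motifs listed after them.
NUP58 promoter, chr13:25301375-25301674, plus strand: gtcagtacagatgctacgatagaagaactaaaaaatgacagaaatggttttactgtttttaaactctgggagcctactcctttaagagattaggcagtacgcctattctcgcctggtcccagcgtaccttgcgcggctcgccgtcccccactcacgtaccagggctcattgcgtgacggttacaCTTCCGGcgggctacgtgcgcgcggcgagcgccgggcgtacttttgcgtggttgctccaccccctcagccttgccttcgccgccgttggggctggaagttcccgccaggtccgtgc
NUP50 promoter, chr22:45163675-45163974, plus strand: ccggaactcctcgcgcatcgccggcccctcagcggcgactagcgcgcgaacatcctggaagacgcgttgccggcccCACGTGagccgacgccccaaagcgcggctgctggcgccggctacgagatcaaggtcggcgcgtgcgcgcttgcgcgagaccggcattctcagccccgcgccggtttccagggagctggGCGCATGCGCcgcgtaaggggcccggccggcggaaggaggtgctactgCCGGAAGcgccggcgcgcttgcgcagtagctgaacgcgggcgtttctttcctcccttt
The letters searched were CCGGAAG (an ETS core), GCGCATGC (an NRF1 core), CCAAT (the NF-Y element), CACGTG (an E-box), GGGCGG (an SP1 GC box) and TTCNNNGAA (a STAT core). The NUP58 window holds 1 match, to the ETS core. The NUP50 window holds 4, of which 1 is the ETS core, 1 is the E-box and 2 are the NRF1 core read on both strands of the same overlapping letters. Among the 29 members with a promoter in the table, 11 (37.9%) hold the ETS core, beside 10.2% of all 34943 promoters of the same length. It is present in 6 of the 14 called higher (42.9%), and a link to the rise was not tested. Among those 14, CCAAT was in 21.4%, the E-box in 14.3%, the GC box in 42.9%, and the NRF1 and STAT cores in 7.14% each. The background takes every promoter window whatever the level of its gene, whereas all members are expressed, so the shares are not like for like. The STAT core is present in 6.90% of the members' promoters and 7.66% of all promoters, the E-box in 6.90% and 7.23%, the NRF1 core in 10.3% and 3.02%, CCAAT in 37.9% and 34.6%, and the GC box in 44.8% and 44.9%. These matches describe letters in the window and do not mark bound sites.

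The outer ring contributed 8 genes, of which 3 were higher (NUP160, NUP43 and NUP133), 1 was lower (SEC13) and 4 did not pass the threshold. NUP160, a large subunit of the Y complex, lies at chr11:47778087-47848555 (minus strand). Its scaled RPKM was 18.6, 22.3 and 20.5 in sh-luc and 30.8, 31.99 and 34.7 in sh-IUR-5. The gap between the groups was wider than the spread within either, with a log2 fold change of 0.67 (standard error 0.08, edgeR adjusted p = 6.18e-06) on 1743 to 4595 reads per library. NUP43, a propeller subunit of the Y complex, rose from 7.29 ± 0.21 to 10.2 ± 0.38 scaled RPKM, and NUP133, at the tip of the stem, rose from 28.2 ± 1.6 to 35.8 ± 1.3 (SD, n = 3 each). Their log2 fold changes were 0.49 and 0.35.

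SEC13, which serves in the Y complex and also in the COPII coat of secretory vesicles, was the member of the outer ring that was lower. Its scaled RPKM was 24.2, 26.2 and 25.8 in sh-luc and 17.2, 19.99 and 20.9 in sh-IUR-5, so the groups did not overlap. It had a log2 fold change of -0.39 (standard error 0.10, edgeR adjusted p = 0.0034), which became -0.19 and not past the threshold (edgeR adjusted p = 0.107) when total reads alone set the scale. Of its 7 rows, 4 were called lower and 3 were not called, with values from -0.41 to 0.10. The remaining outer ring genes were NUP107 at 0.23, AHCTF1 (ELYS, which brings the Y complex to chromatin) at 0.17, NUP37 at -0.13 and NUP85 at -0.24, and these did not pass the threshold. NUP107 passed it with the series term (0.23, edgeR adjusted p = 0.00219). For AHCTF1 the choice of row mattered: the row with the most reads was not called, whereas 3 of its 5 rows were called higher, up to 0.55.

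In the inner ring, NUP205 and NUP188, the large scaffold subunits, were higher, and NUP35, NUP93 and NUP155 did not pass the threshold. NUP205 rose from 18.97 ± 1.9 to 27.2 ± 2.1 scaled RPKM and NUP188 from 27.5 ± 1.5 to 34.2 ± 1.7 (SD, n = 3 each), log2 fold changes of 0.52 and 0.31. NUP93, which links the inner ring to the central channel, stood at 18.6 ± 2.0 and 19.1 ± 2.1 (SD, n = 3 each). NUP155 lay just outside the threshold, with 5.97, 7.24 and 7.08 scaled RPKM in sh-luc and 7.11, 8.16 and 8.39 in sh-IUR-5. Its groups overlapped, with a log2 fold change of 0.22 (edgeR adjusted p = 0.0784), or 0.00585 with the series term. A shorter NUP155 row of 2679 bases was called higher at 0.83, on 113 to 136 reads per sh-luc library and 266 to 347 per sh-IUR-5 library.

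The cytoplasmic side and mRNA export machinery had 8 members, of which 3 were higher (NUP98, RANBP2 and NUP214) and 5 did not pass the threshold. NUP98 is a repeat-rich subunit made, together with the outer ring protein NUP96, from a common precursor. Its longest row, of 5403 bases, is as long as the precursor's coding sequence, and rose from 8.18 ± 0.49 to 11.8 ± 0.084 scaled RPKM (SD, n = 3 each), a log2 fold change of 0.53 (edgeR adjusted p = 4.28e-05). Its 2 short rows, of 2763 and 2814 bases, were higher at 1.00 and 0.76. Within each library, the reads on the short rows divided by the reads on the 2 long rows were 0.248, 0.222 and 0.238 in sh-luc and 0.317, 0.279 and 0.287 in sh-IUR-5, which did not overlap (two-sided exact permutation p = 0.1, the smallest that 3 libraries against 3 allow, and 0.133 after adjustment over the 4 ratios computed). The rows and ratios were chosen after their values were seen.

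RANBP2, the giant filament protein that binds Ran and acts as a SUMO ligase, rose from 2.22 ± 0.22 to 3.04 ± 0.23 scaled RPKM (SD, n = 3 each), a log2 fold change of 0.45. Of its 6 tested rows, 4 were higher. NUP214, which docks mRNA export factors, lay closest to the threshold among the called genes, with 6.88, 6.97 and 7.15 scaled RPKM in sh-luc and 8.49, 8.24 and 8.93 in sh-IUR-5. Its groups did not overlap, with a log2 fold change of 0.29 (standard error 0.08, edgeR adjusted p = 0.00661). A shorter NUP214 row of 2751 bases did not pass (-0.01, edgeR adjusted p = 0.946). Its partner NUP88, the export factors GLE1 and RAE1, NUP42 and AAAS (ALADIN) had log2 fold changes between -0.11 and 0.17 and did not pass the threshold.

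Of the 4 membrane genes, NUP210, NDC1 and POM121C were higher and POM121 was lower. NUP210, a single-pass glycoprotein of the pore membrane, had 3.37, 2.82 and 3.31 scaled RPKM in sh-luc and 5.21, 4.65 and 4.53 in sh-IUR-5. That was a log2 fold change of 0.60 (standard error 0.10, edgeR adjusted p = 0.000112), and all 3 rows were higher. NDC1, a multipass protein needed to insert pores into the envelope, had 7.26, 9.84 and 9.22 in sh-luc and 11.7, 12.4 and 13.96 in sh-IUR-5. Its groups were apart despite the low first sh-luc library, with a log2 fold change of 0.53 (standard error 0.11, edgeR adjusted p = 0.000988).

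POM121 anchors the pore scaffold in the membrane, and its 2 rows moved in opposite directions. The row with more reads, NP_001244119.1 of 3000 bases, had 14.1, 13.3 and 12.7 scaled RPKM in sh-luc and 8.50, 9.79 and 9.10 in sh-IUR-5. This was a log2 fold change of -0.55 (standard error 0.09, edgeR adjusted p = 7.45e-05), the largest fall among the 32. The row NP_742017.1 of 2955 bases had 2.16, 2.66 and 2.61 in sh-luc and 3.78, 3.16 and 3.13 in sh-IUR-5, a log2 fold change of 0.45 (edgeR adjusted p = 0.00644). POM121C, a near copy of POM121 elsewhere on chromosome 7, had 9.50, 9.96 and 10.6 in sh-luc and 15.0, 14.3 and 13.98 in sh-IUR-5, a log2 fold change of 0.52 (edgeR adjusted p = 8.51e-05). The longer POM121 row therefore fell while the shorter row and the copy rose, each with groups that did not overlap.

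To see where these rows differ, the GENCODE coding sequences with the lengths of the rows were compared. Both POM121 forms share their first 2858 coding bases and then end in different exons. The last 18 shared bases are printed in lower case and the ends that differ in capitals, with the matching stretch of POM121C.
POM121, 3000-base row, capitals at chr7:72948329-72948470, plus strand: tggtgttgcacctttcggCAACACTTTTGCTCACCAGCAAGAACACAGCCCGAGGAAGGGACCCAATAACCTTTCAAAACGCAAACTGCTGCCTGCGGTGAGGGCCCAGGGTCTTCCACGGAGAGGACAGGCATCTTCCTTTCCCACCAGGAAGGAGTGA
POM121, 2955-base row, capitals at chr7:72946138-72946234, plus strand: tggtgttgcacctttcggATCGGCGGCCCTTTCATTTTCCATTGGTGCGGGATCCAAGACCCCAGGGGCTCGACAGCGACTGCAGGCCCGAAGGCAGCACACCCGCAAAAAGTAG
POM121C, 2964-base row, capitals at chr7:75418796-75418892, minus strand: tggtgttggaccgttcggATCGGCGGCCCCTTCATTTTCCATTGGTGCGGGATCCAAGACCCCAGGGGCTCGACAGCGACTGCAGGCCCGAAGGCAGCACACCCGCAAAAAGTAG
The end of the 3000-base form is 142 coding bases long, and its exon spans chr7:72948328-72951440 (hg38). All 142 bases lie within exons annotated on the opposite strand to NSUN5P2, a pseudogene that is also listed as a long noncoding RNA. Whether the counting used strand is not given in the sources used here, so reads of the 2 genes cannot be told apart over that end. The 97-base end of the shorter form matches POM121C over its last 85 bases without a difference. Over the whole coding sequence, the 2955-base form and POM121C were identical at 98.7% of aligned bases, with 39 substitutions, so reads of the shared stretches may be split between the copies and both levels are uncertain.

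Within each library, the reads on the 2955-base row divided by those on the 3000-base row were 0.151, 0.198 and 0.202 in sh-luc and 0.438, 0.318 and 0.339 in sh-IUR-5. The ratio of POM121C to the 3000-base row went from 0.744 ± 0.080 to 1.57 ± 0.16 (SD, n = 3 each). Neither ratio overlapped between groups (two-sided exact permutation p = 0.1 for each, adjusted 0.133, with 0.1 the smallest possible). Because the numerator rows rose and the 3000-base row fell, each with groups apart, these ratios had to separate. Their p-values therefore add nothing to the row values above. The 2955-base row over POM121C was 0.246 ± 0.020 in sh-luc and 0.232 ± 0.017 in sh-IUR-5 (SD, n = 3 each), with overlapping libraries (two-sided exact permutation p = 0.5). With the reads of both POM121 rows summed, the sum was lower by edgeR at -0.36 (adjusted p = 0.00172). That sum includes any reads of NSUN5P2 counted on the end of the 3000-base row, and the 2955-base row alone was higher. It therefore does not settle the direction of the gene.

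NUTF2, which returns Ran bound to GDP to the nucleus, did not pass the threshold by its row with the most reads. That row had 54.3 ± 2.1 scaled RPKM in sh-luc and 48.7 ± 1.3 in sh-IUR-5 (SD, n = 3 each). Its log2 fold change was -0.16 (edgeR adjusted p = 0.173). Of the 5 NUTF2 rows, 1 was called lower (-0.26, edgeR adjusted p = 0.0264), and so was their sum (-0.19, edgeR adjusted p = 0.0452). The member nearest the threshold from outside was NUP85 of the outer ring. It had 6.81, 8.11 and 8.07 scaled RPKM in sh-luc and 5.85, 6.79 and 6.84 in sh-IUR-5, overlapping between groups by a narrow margin, with a log2 fold change of -0.24 (edgeR adjusted p = 0.0775, or 0.015 with the series term).

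**Figure D2:**
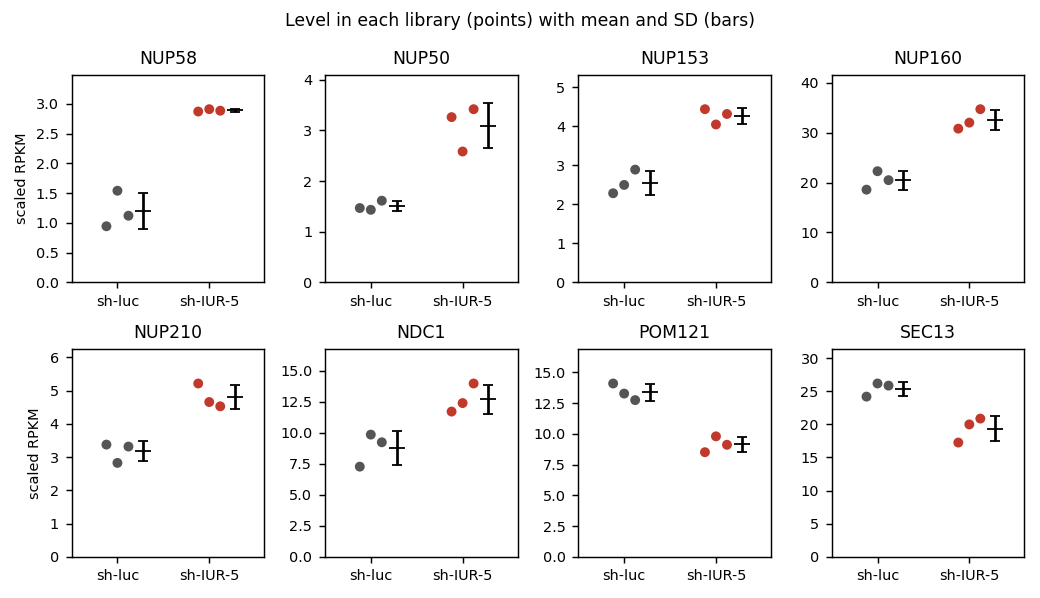
Scaled RPKM (vertical axes, from 0) of the 6 nuclear pore genes with the larger rises and the 2 that were lower, in each sh-luc (gray) and sh-IUR-5 (red) library, with mean and SD beside the points. The groups are apart in all 8 panels; NUP58 goes from a mean of 1.202 to 2.89 and SEC13 from 25.4 to 19.4.

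Fold changes were then set beside transcript length, since the nuclear pore genes are long. Their median transcript (MANE Select, or else Ensembl canonical, in GENCODE) had 5180 bases, compared with 2881 over 8766 genes. Across all those genes, the log2 fold change rose with transcript length (Spearman rho = 0.49 across genes, which share the 6 libraries and are not replicates). Cut into 8 bins of equal size by length, the median log2 fold change went from -0.40 in the shortest bin to 0.25 in the longest, and the share of genes called higher from 1.09% to 43.9%. Of the 32 members, 18 fell into the 2 longest bins, and 12 of the 15 called higher were among these 18. Within the members the correlation was 0.36 (n = 32). The longer of these bins held 10 members with a median log2 fold change of 0.26, and the other held 8 with a median of 0.53, beside 0.22 for all its genes.

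When each library's trends on transcript length and coding GC content were removed, an alternative added after the data were examined, 11 members were higher and 4 lower, beside 15.9% and 18.1% of 8766 genes. The members' median was then 0.07, beside 0.01 over those genes. Of the 15 members called higher before, 10 were still called, namely NUP58 (1.02), NUP50 (0.76), NUP210 (0.46), NUP153 (0.45), NUP54 (0.41), NUP160 (0.38), POM121C (0.38), NUP98 (0.27), RANBP2 (0.24) and NUP205 (0.24). NUP35, the short inner ring subunit, passed the threshold in that fit, at 0.39 (edgeR adjusted p = 0.0432). The calls of NUP133 (0.06), NUP188 (0.10), NUP214 (0.08), NDC1 (0.26) and NUP43 (0.25) were lost. POM121 stayed lower at -0.68, SEC13 was at -0.12 and no longer called, and TPR (-0.30), NUP88 (-0.25) and NUP37 (-0.19) were called lower.

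**Figure D3:**
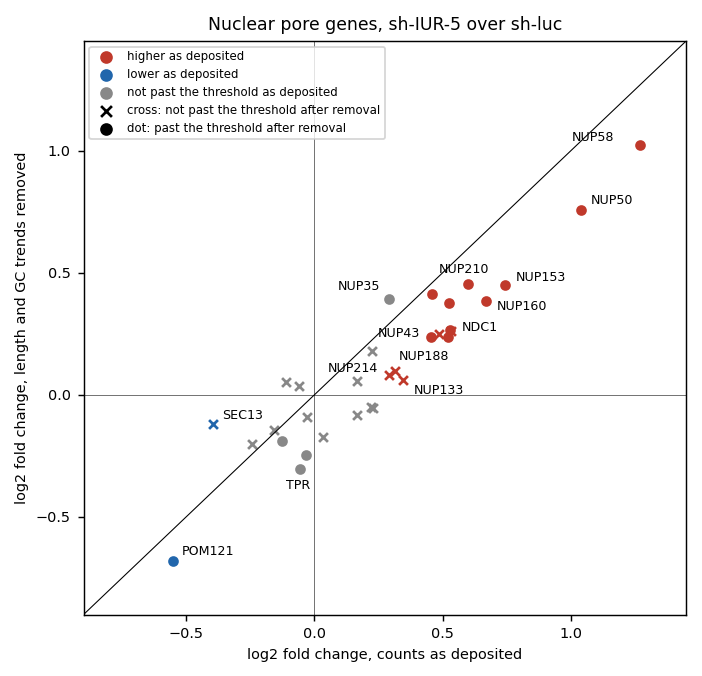
Log2 fold change of the 32 nuclear pore genes from the counts as deposited (horizontal axis) and after the trends on transcript length and GC were removed (vertical axis), sh-IUR-5 over sh-luc. Colors give the call as deposited, dots are past the threshold after removal and crosses are not, and the diagonal marks equal values. NUP58 goes from 1.27 to 1.02, NUP133 from 0.35 to 0.06 and POM121 from -0.55 to -0.68.

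The grouping by position looked as follows on both scales. The median log2 fold change was 0.20 in the outer ring, 0.29 in the inner ring, 0.46 in the central channel, 0.07 on the cytoplasmic side, 0.74 in the basket and 0.53 in the membrane group. With the trends removed the medians were -0.07, 0.10, 0.41, 0.05, 0.45 and 0.32, in the same order of groups. The central channel, basket and membrane groups hold 3, 3 and 4 genes, and differences between groups were not tested.

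Levels can be compared between genes only per length and over all rows of a gene, because rows of equal length hold nearly equal reads. The 5 NUTF2 rows of 384 bases held 2775 to 2893 reads each, and the 5 NUP62 rows of 1569 bases 1497 to 1604. The sums below assume that a read was counted on a single row, which the sources used here do not state; if it was counted on every row it matches, the sums of genes with several rows are too high. At 1 row per gene, NUP37 (149.9 scaled RPKM over the 6 libraries), TPR (55.5) and NUTF2 (51.5) led. For the sums, the reads of all rows of a gene were divided by the length of its row with the most reads. The summed levels are therefore approximate where the rows of a gene differ in length. Summed over rows, NUTF2 was the highest member, at 269 ± 13.7 scaled RPKM in sh-luc and 239 ± 7.93 in sh-IUR-5, followed by NUP37 (156 ± 12.5 and 143 ± 7.91) and SEC13 (133 ± 6.08 and 109 ± 7.57; SD, n = 3 each). NUP93 (67.1 ± 7.0 and 67.1 ± 5.9) and TPR came next. At the low end stood NUP50 (5.83 ± 0.97 and 11.6 ± 0.83), NUP42 (7.96 ± 0.28 and 7.66 ± 0.62), NUP210 (5.29 ± 0.24 and 8.31 ± 0.94) and NUP58 (2.91 ± 0.66 and 6.36 ± 0.30; SD, n = 3 each). With the lengths chosen in this way, NUP210 and NUP50 did not differ beyond their spread in sh-luc. The NUP210 rows ran from 3039 to 5664 bases, so that comparison depends on the length used. Less abundant members had the larger log2 fold changes (Spearman rho = -0.45 between summed level and log2 fold change over 32 genes, a description, since both come from the same reads). Sums may miss rows without a symbol, as 84.4% of the reads lay on rows with one.

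Close relatives of the members were examined because their reads may be shared. The RANBP2 rows together held 2077, 2396 and 2183 reads in sh-luc and 4400, 3461 and 3818 in sh-IUR-5. The rows of the RGPD genes, which arose from RANBP2, held 702, 567 and 527 and then 1112, 784 and 841. These reads are not scaled, and every sh-IUR-5 library was deeper than every sh-luc library. After scaling, the summed RANBP2 reads had a log2 fold change of 0.31 (edgeR adjusted p = 0.0170). Of the 34 RGPD rows, 0 reached a mean of 1 RPKM, so a difference in these rows was not tested. NUP62CL, a relative of NUP62, had 9.35, 10.9 and 9.09 scaled RPKM in sh-luc and 14.7, 9.87 and 10.5 in sh-IUR-5, overlapping between groups (log2 fold change 0.27, edgeR adjusted p = 0.166). Overlap with other genes was also counted: exons of other genes covered 44.6% of the coding bases of NUP42, 19.6% of NUP62 and 10.2% of GLE1, and less of the others in their GENCODE transcripts.

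Genes that work with the pore were counted from 4 lists, against the same 22.4% higher and 23.5% lower of all genes. Of 8 tested pore partners, such as SUMO proteases and checkpoint proteins docked at the pore, 1 was higher (SENP2, a SUMO protease, 0.42) and 1 lower (MAD1L1, a spindle checkpoint protein, -0.43), with a median of 0.08. In the Ran cycle list of 7 genes, RCC2 (0.40) was higher, RANGRF (-0.65) and RANBP1 (-0.29) were lower, and the median was -0.05. RCC2 is an RCC1-like protein and not the Ran exchange factor. RCC1, which is that factor, was not called (-0.05, edgeR adjusted p = 0.754). Among 21 mRNA export genes, 1 was higher, ZC3H11A (0.46), and 7 were lower, with the larger falls in SEM1 (-0.70) and THOC6 (-0.50), and a median of -0.13. Of 16 tested genes of the nuclear envelope and lamina, 7 were higher and 2 lower, with a median of 0.23. LEMD3 (0.93), an inner membrane protein that binds chromatin through BANF1, and LBR (0.92), the lamin B receptor, had the larger rises, and LMNA (-0.46), which encodes lamins A and C, and BANF1 (-0.24) were the genes that were lower. With the length and GC trends removed, the envelope list had 7 higher and 1 lower, and the mRNA export list 1 and 7. Of the pore partners, 2 were lower, and in the Ran cycle list only RCC2 was called, as higher. The shares of all genes were 15.9% and 18.1%. The genes called were in part different from those called before. SENP2 (0.13), RANGRF (-0.21), RANBP1 (-0.002), ZC3H11A (0.18) and BANF1 (0.20) then no longer passed the threshold, and LEMD3 (0.72), LBR (0.69), LMNA (-0.47), SEM1 (-0.37), THOC6 (-0.22), RCC2 (0.30) and MAD1L1 (-0.39) did. With total reads alone as the scale, edgeR called 5 higher and 3 lower in the mRNA export list and 12 and 1 in the envelope list. It called 1 and 1 in the Ran cycle list and 5 pore partners higher, beside 39.3% and 12% of all genes.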

How the data were processed

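Total RNA from 3 sh-luc and 3 sh-IUR-5 cultures of K562 cells was sequenced by the authors. The submitters' processing notes name CASAVA 1.8, Trimmomatic 0.32, Bowtie2 2.1.0, SAMtools 0.1.19 and the build hg38; the rule for reads that match several isoforms is not given in the sources used here. The authors deposited read counts per RefSeq protein accession without normalization, and RPKM values, which were checked to equal counts divided by row length and by the summed reads of the library. The deposited row length is the coding length (99.8% of lengths are multiples of 3). The authors' table of their own comparison (pooled counts, fold changes, p-values) was not used.

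Symbols were matched by accession for 64.7% of rows (RefSeq, GRCh38.p14). Counts were tested with edgeR 4.0.16 (R 4.3.3): TMM scaling, quasi-likelihood test, the 38204 accessions whose mean RPKM was 1 or more, 2-sided, Benjamini-Hochberg adjustment, threshold 0.05. The TMM factors were 0.925 to 0.938 in sh-luc and 1.05 to 1.11 in sh-IUR-5, and the biological coefficient of variation was 8.05%. Groups came from the library titles. The cultures are described as independent experiments, but libraries 2 and 3 of each group share a series in their names, so p-values may in part measure technical spread. A level of 3 reads on a row of 1 kb, the limit that a count of 0 allows, came to 0.0953 to 0.143 RPKM by library; it covers counting error only. Alternatives were other scalings, DESeq2 1.42.0, limma 3.58.1 on log2(RPKM + 0.1) or log2(RPKM + 1), other minimum levels, gene sums, a replicate block, a series term, length and GC trends (mgcv 1.9.3), and each library left out. The scripts were tested on simulated counts. Ratios of rows were compared by exact permutation tests (scipy 1.17.1), and coding sequences and exons came from GENCODE release 44 (aligned with Biopython 1.88) and promoters from RefSeq (GRCh38).

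The members and lists were chosen with earlier results of these data known. All 32 members are named; values per library are given for the 6 largest rises, the falls, the genes nearest the threshold (2 inside, 2 outside) and near-identical copies. From each pathway list, the 2 largest rises and 2 largest falls past the threshold are named with their fold changes. Rows of NUP98, NUP155, NUP214 and AHCTF1, and the ratios of the POM121 and POM121C rows, were singled out after their values were seen.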

Additional observations from a re-analysis of the deposited data

How the results depend on the processing

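All 15 genes called higher and both called lower kept their calls and directions in the 6 fits that left out each library in turn (15 to 18 members higher, 2 or 3 lower, medians from 0.20 to 0.30), and 10 of the 15 were called higher in every one of the 24 alternatives in which they were tested. POM121 was lower in all 24, and SEC13 in 17. Shares over all genes were computed for total reads, the series term and the length and GC removal without the replicate block. For the other alternatives they were not computed, so those member counts cannot be set beside the whole table. Scaling by total reads alone moved the median of all accessions to 0.21, gave 23 members higher and 1 lower with a median of 0.46 (39.3% and 12% of all genes), and turned TPR to 0.15. The limma fits, which had no TMM scaling, gave 1 member lower and medians of 0.45 with a pseudocount of 0.1 and 0.40 with 1. With a minimum of 5 RPKM, 25 members were tested, with a median of 0.33. Gene sums gave 17 members higher, AHCTF1 and NUP62 among them, and 4 lower (POM121, SEC13, NUP85 and NUTF2). Removal of the trend on row length gave a median of 0.15 (5 lower and a median of 0.15 with the replicate block), and of the trend on transcript length a median of 0.094 (0.096 with the replicate block, where NUP93 was lower at -0.18). Removal of the transcript length and GC trends gave 4 members lower and a median of 0.070, and with the replicate block 6 lower, a median of 0.070 and NUP93 at -0.17. The other 58 changes of sign concerned members not called in either fit.

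The replicate block alone gave 17 members higher and 3 lower (median 0.26), and 2 genes higher in place of 1 among the pore partners and in the mRNA export list. Deviations of same-numbered libraries correlated at 0.31, 0.088 and -0.013. These values do not settle whether the numbers pair the samples. Correlations between libraries of different series were all below 0 (-0.27 to -0.071). Deviations from a group mean sum to 0, so these negative values follow in part from the 0.31 and are not separate evidence. The series term gave 18 members higher and 3 lower (median 0.26), beside 27.3% and 29.1% of all genes. Libraries 2 and 3 alone gave 17 and 2 (median 0.22). The rows of NUP58 and NUP50 rest on few reads, and low members have the wider errors.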
